A study of Mus musculus with 8 samples.

Results

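The genes examined here are 8 that define a noradrenergic neuron, the sympathetic nerve cell that releases noradrenaline onto vessels: *Th*, *Ddc*, *Dbh*, *Slc18a2*, *Slc6a2*, *Npy*, *Phox2a* and *Hand2*. They were found by symbol among the 21859 genes of the count tables, and all 8 passed the filter on low counts that kept 15077 genes for testing. They were chosen by their counts in these same libraries, whose large spread between mice was already known, so their levels and genotype differences are given as a description. The calls of the fit across all genes are printed for them as counts, and nothing is read from those counts. RNA was sequenced from whole aortas of 4 *ApoE-/-* and 4 wild-type (WT) mice, all C57BL/6 males aged 40 weeks on normal chow, with 1 library of ribodepleted total RNA for each mouse. The *ApoE-/-* mice lack apolipoprotein E in every cell and are used as a model of atherosclerosis. No other allele or agent is named, and the labels do not say how much nerve, ganglion or fat was left on each aorta.

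Sympathetic neurons have their cell bodies in ganglia beside the spine and aorta and send axons to the outer coat of arteries. Tyrosine hydroxylase, aromatic amino acid decarboxylase and dopamine beta-hydroxylase make noradrenaline from tyrosine in successive steps, a vesicular transporter packs it for release, and a transporter of the axon membrane takes it back up. Most messenger RNA of these neurons lies in the cell body rather than in the axon. In whole tissue, fewer cells of a type and less RNA per cell cannot be told apart.

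Read pairs counted on genes numbered 23240995 to 23940156 in *ApoE-/-* libraries and 18375898 to 21664598 in WT libraries. *Apoe* was at 14.7 to 36.3 CPM (counts-per-million scale, adjusted by TMM factors for library composition) in *ApoE-/-* mice and at 536 to 857 in WT mice, which matches the labels. The library of *ApoE-/-* mouse 1 stood apart from the other 7. Its smooth muscle markers summed to 5748 CPM against 13095 to 25201 in the others, while all 8 noradrenergic genes were at their highest in it. For this reason the genotype differences of the 8 genes are given with and without this mouse. The share of its read pairs that fell on genes (33.5%) was within the range of the other *ApoE-/-* mice (32.3% to 35.6%). In WT mice this share was 27.9% to 30.2%, below every *ApoE-/-* mouse.

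The loci, in GRCm38 with the GENCODE M21 annotation, lie on 6 chromosomes, and no other gene overlaps any of them on the same strand. *Th* (chr7:142892752-142931128, minus strand) and *Phox2a* (chr7:101818313-101822726, plus) share the chromosome of *Apoe*, at 123 and 82.1 Mb from it. *Ddc* is at chr11:11814101-11898144 (minus), *Dbh* at chr2:27165233-27183200 (plus), *Slc18a2* at chr19:59260896-59296012 (plus), *Slc6a2* at chr8:92960079-93001667 (plus), *Npy* at chr6:49822710-49829507 (plus) and *Hand2* at chr8:57320983-57324633 (plus). *Ddc*, *Slc18a2*, *Phox2a* and *Hand2* each overlap 1 gene on the opposite strand (*1700042O10Rik*, *Gm29261*, *Inppl1* and *Hand2os1*), which a stranded count keeps apart.

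For 3 of the 8 genes the sequence just upstream of the start site is shown. RefSeq promoter windows in GRCm38.p6, of 250 bases before to 50 after a start site, were given for 7 of the 8 genes and not for *Slc6a2*. The stretches below run 5′ to 3′ on the strand of the gene, from 250 bases before its start site to 10 after it, for *Th* (chr7:142899986-142900245, minus strand), *Slc18a2* (chr19:59260628-59260887, plus) and *Dbh* (chr2:27165257-27165516, plus). Capitals mark the cyclic AMP response element TGACGTCA and the letters ATTA or TAAT, the core that homeodomain factors such as PHOX2A bind.
Th: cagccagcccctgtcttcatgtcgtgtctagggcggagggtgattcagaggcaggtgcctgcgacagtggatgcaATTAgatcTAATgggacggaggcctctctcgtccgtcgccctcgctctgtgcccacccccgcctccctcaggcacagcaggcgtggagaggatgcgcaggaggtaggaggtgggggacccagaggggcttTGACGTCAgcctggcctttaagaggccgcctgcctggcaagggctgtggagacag
Slc18a2: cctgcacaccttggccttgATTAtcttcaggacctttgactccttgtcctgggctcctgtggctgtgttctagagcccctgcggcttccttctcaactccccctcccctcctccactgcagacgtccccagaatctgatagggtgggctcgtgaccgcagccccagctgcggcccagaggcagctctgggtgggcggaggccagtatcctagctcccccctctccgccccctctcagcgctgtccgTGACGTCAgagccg
Dbh: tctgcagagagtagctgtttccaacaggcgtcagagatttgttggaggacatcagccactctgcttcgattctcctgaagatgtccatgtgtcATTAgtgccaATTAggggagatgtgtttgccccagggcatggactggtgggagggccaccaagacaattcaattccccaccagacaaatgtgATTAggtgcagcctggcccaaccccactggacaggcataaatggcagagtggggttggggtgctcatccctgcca
TGACGTCA, which reads the same on both strands, was found in the windows of 2 of the 7 genes and in 1.79% of all 32851 windows. It began 45 bases before the start of *Th* and 4 bases before that of *Slc18a2*. ATTA, on either strand, was found in the windows of 5 of the 7 genes, against 58.0% of all windows. In *Dbh* it lay at 157, 147 and 65 bases before the start, and its window did not hold TGACGTCA. Of the 7 genes only *Ddc* held TATAAA, on the strand opposite to the gene, which 13.6% of all windows held. CANNTG, the E-box that HAND2 and related factors recognise, was in 5 of the 7 and in 72.3% of all windows. These matches describe letters and not binding, which was not measured.

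*Th*, which encodes the rate-limiting enzyme of catecholamine synthesis, was at 932, 1.18, 57.2 and 9.98 CPM in *ApoE-/-* mice 1 to 4. In WT mice 1 to 4 it was at 71.8, 147, 31.2 and 98.4 CPM. In the order of mice, *ApoE-/-* mouse 1 was above every WT mouse, mouse 3 was inside the WT range, and mice 2 and 4 were below it. The 1.18 CPM of mouse 2 rested on 27 read pairs and the 932 of mouse 1 on 22953, a 789-fold difference in CPM within 1 genotype. Among WT mice the highest was 4.70 times the lowest.

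*Ddc*, the decarboxylase that turns DOPA into dopamine, was at 493, 1.62, 40.6 and 8.72 CPM in *ApoE-/-* mice and at 57.9, 98.5, 26.6 and 65.4 in WT mice. *Dbh*, which turns dopamine into noradrenaline inside the vesicle and is a defining marker of noradrenergic cells, was at 1431, 2.67, 92.0 and 15.4 CPM in *ApoE-/-* mice and at 131, 239, 52.4 and 175 in WT mice. The 3 enzymes ranked the 8 mice identically, and their genotypes overlapped in the same way. Counts of *Dbh* went from 61 in *ApoE-/-* mouse 2 to 35267 in *ApoE-/-* mouse 1.

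*Slc18a2*, the vesicular monoamine transporter, was at 756, 13.7, 61.0 and 18.3 CPM in *ApoE-/-* mice and at 69.6, 125, 42.0 and 87.4 in WT mice. *Slc6a2*, the noradrenaline transporter that ends the signal by reuptake, was at 2059, 9.66, 151 and 24.8 CPM in *ApoE-/-* mice and at 216, 319, 88.7 and 238 in WT mice. Both transporters were again highest in *ApoE-/-* mouse 1 and lowest in *ApoE-/-* mouse 2. *Slc18a2* had the smallest range of the 8 genes within *ApoE-/-* mice, at 55.2-fold, and its level in mouse 2 was above those of the 3 enzymes.

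*Npy* encodes neuropeptide Y, the vasoconstrictor peptide that sympathetic neurons release along with noradrenaline. It was at 525, 1.75, 47.3 and 13.1 CPM in *ApoE-/-* mice and at 58.4, 143, 28.6 and 100.3 in WT mice. It showed the least excess of *ApoE-/-* mouse 1 over the highest WT mouse, 3.68-fold, while *Slc6a2* showed the greatest, 6.46-fold.

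*Phox2a*, a homeodomain factor that switches on the synthesis enzymes, was the scarcest member, at 25.9, 0.219, 1.79 and 0.260 CPM in *ApoE-/-* mice and at 3.26, 4.91, 1.44 and 3.78 in WT mice. In *ApoE-/-* mice 2 and 4 it rested on 5 and 6 read pairs. *Hand2*, a basic helix-loop-helix factor of the sympathetic lineage, was at 101, 1.27, 7.32 and 1.43 CPM in *ApoE-/-* mice and at 12.0, 18.7, 5.71 and 13.6 in WT mice. The factors therefore followed the enzymes and transporters despite levels that were far lower.

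For all 8 genes the order of the mice was identical: *ApoE-/-* 1, WT 2, WT 4, WT 1, *ApoE-/-* 3, WT 3, *ApoE-/-* 4 and *ApoE-/-* 2, from highest to lowest. Within *ApoE-/-* mice the highest level was 55.2 to 789 times the lowest (median over the genes 257), and within WT mice 2.97 to 4.98 times (median 3.65). The level in *ApoE-/-* mouse 1 exceeded the highest WT mouse 3.68 to 6.46 times and the next *ApoE-/-* mouse 11.1 to 16.3 times. The genotypes overlapped for every one of the 8 genes. Of all genes tested, 8.71% had ranges that did not overlap. With so few genes, chosen with their spread known, nothing is read from setting the 8 beside that share. The SD of log2 CPM within *ApoE-/-* mice had a median of 3.41 over the 8 genes and of 0.343 over all genes tested, with *Th* the most variable gene of all 15077 within that genotype. Within WT mice the corresponding medians were 0.792 and 0.176.

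**Figure D1:**
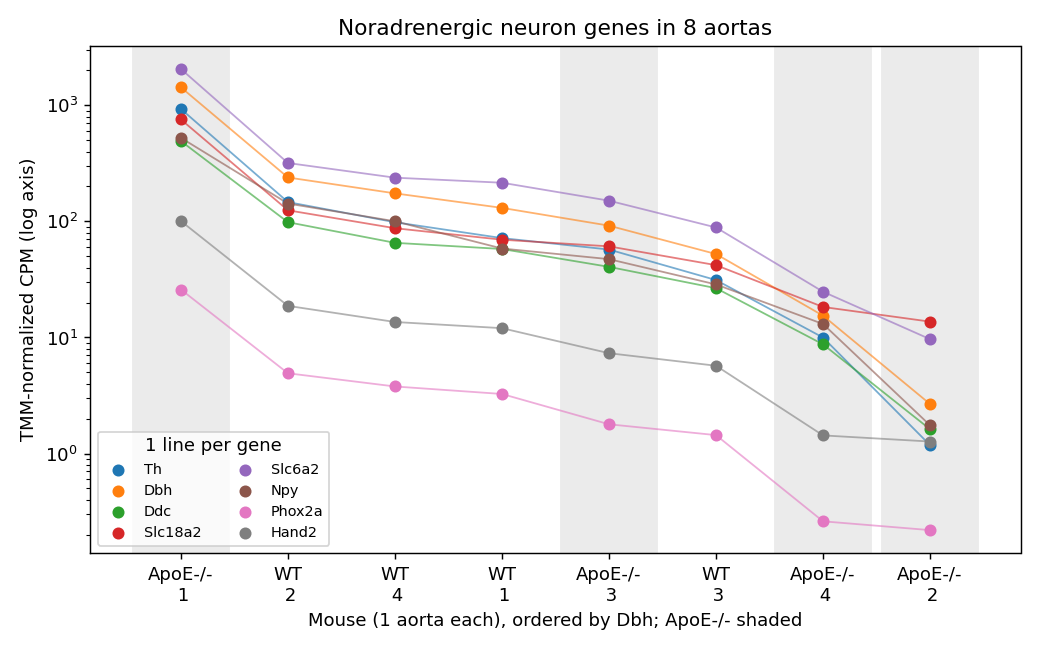
TMM-scaled CPM (log axis) of the 8 noradrenergic genes in each aorta, with mice ordered by *Dbh* and *ApoE-/-* mice shaded. Each point is 1 mouse and each line 1 gene. The lines fall together from *ApoE-/-* mouse 1 to *ApoE-/-* mouse 2, and the 4 WT mice and *ApoE-/-* mouse 3 lie between them.

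Added together, the 8 genes took 0.653% of all read pairs on genes in *ApoE-/-* mouse 1 (155780 pairs, or 1 in 153; exact binomial 95% interval 0.649% to 0.656%). They took 0.00315% in *ApoE-/-* mouse 2 (733 pairs; 0.00292% to 0.00339%), 0.0453% in mouse 3 and 0.00885% in mouse 4. In WT mice the share was 0.0272% to 0.116%. The intervals cover counting error only and are far narrower than the gaps between mice. The summed level was 6323, 32.1, 458 and 92.0 CPM in *ApoE-/-* mice 1 to 4 and 619, 1094, 277 and 782 in WT mice 1 to 4.

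Levels of different genes were compared per length, as CPM divided by kilobases of exon (RPKM). *Npy*, with 0.566 kb of exon, was the highest of the 8 in 8 of 8 mice, at 50.6 to 252 RPKM in WT aortas. In WT aortas *Dbh* was at 19.4 to 88.9 RPKM, *Th* at 13.2 to 62.1, *Slc6a2* at 14.1 to 50.7, *Slc18a2* at 8.04 to 23.9, *Ddc* at 5.96 to 22.1, *Hand2* at 2.43 to 7.96 and *Phox2a* at 0.708 to 2.42. Ranges of neighbours in this order overlapped between WT mice, except those of *Hand2* and *Phox2a*, and within each mouse *Npy* came before the rest and *Phox2a* was last. In *ApoE-/-* mouse 1 the values reached 928 RPKM for *Npy* and 532 for *Dbh*, with 12.7 for *Phox2a*.

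The proportions among the genes were then examined by setting each count against the *Dbh* count of the same mouse. Outside *ApoE-/-* mice 2 and 4, in the 6 mice that included *ApoE-/-* mouse 1, *Th* stayed between 54.9% and 65.1% of *Dbh*, a 1.19-fold range. The other 6 genes varied 1.27-fold to 1.62-fold over these 6 mice, although *Dbh* itself ran from 945 to 35267 counts. In *ApoE-/-* mouse 1 *Slc18a2* (52.8%) and *Slc6a2* (144%) were inside the WT ranges and *Th* (65.1%) was above its WT range of 54.9% to 61.4%. The *Ddc* (34.4%), *Npy* (36.7%), *Phox2a* (1.81%) and *Hand2* (7.03%) of that mouse were each below the WT range, which was 37.5% to 50.8% for *Ddc* and 44.7% to 59.6% for *Npy*.

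*ApoE-/-* mouse 2 departed from these proportions. *Slc18a2* was at 513% of *Dbh* there (exact binomial 95% interval 389% to 687%) against 50.1% to 80.2% in WT mice, and *Slc6a2* at 362% (272% to 489%) against 133% to 169%. *Hand2* was at 47.5% of *Dbh* (29.5% to 75.1%) against 7.79% to 10.9%, and *Phox2a* at 8.20% (2.57% to 20.2%) against 2.05% to 2.75%. *Ddc*, at 60.7% (39.2% to 92.7%) against 37.5% to 50.8%, and *Npy*, at 65.6% (42.9% to 99.3%) against 44.7% to 59.6%, were above the WT range with intervals that reach into it. These intervals cover counting error only, and all of them share the *Dbh* count of 61. *Th* was at 44.3% of *Dbh*, with an interval of 27.0% to 70.7% that contains the WT values. In *ApoE-/-* mouse 4 *Slc18a2* (119%), *Npy* (84.8%), *Th* (64.8%) and *Ddc* (56.6%) were above the WT range, while *Phox2a*, at 1.69% from 6 read pairs, was below it. *Slc18a2* also loads histamine into the granules of mast cells, and the 8 mast cell markers summed to 50.2 CPM in *ApoE-/-* mouse 2, inside the range of 35.9 to 100.3 CPM over the other 7 mice. In *ApoE-/-* mouse 4 they were at that upper end. Their part in the *Slc18a2* values was not tested.

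**Figure D2:**
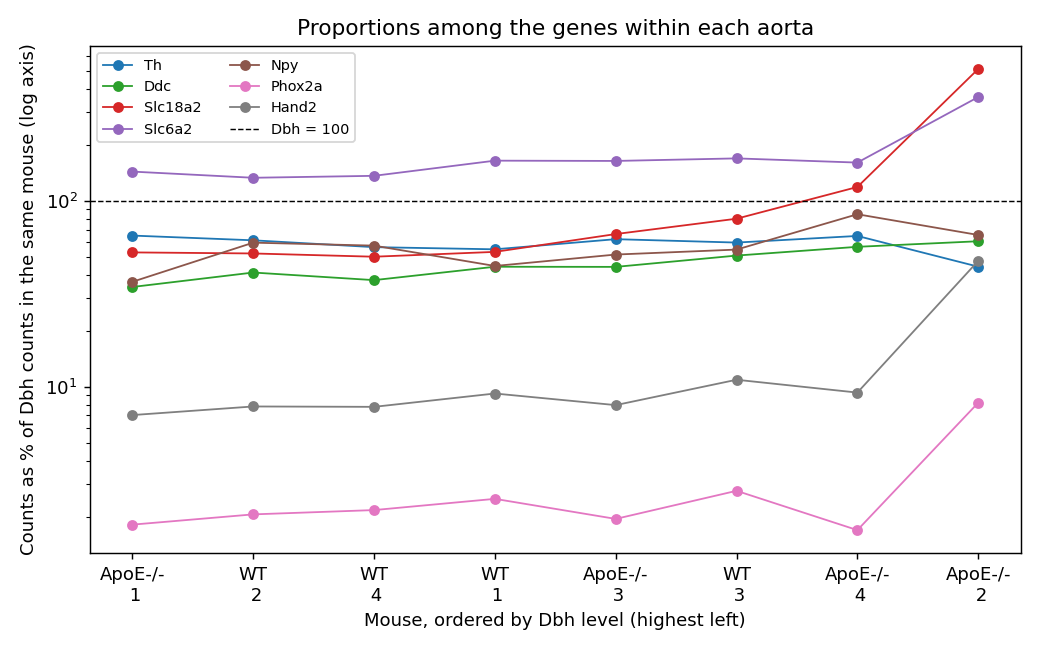
Counts of 7 genes as a percent of the *Dbh* count in the same mouse (log axis), with mice ordered by *Dbh* level. Each point is 1 mouse and each line 1 gene. The lines are nearly flat over the first 6 mice, and *Slc18a2*, *Slc6a2*, *Hand2* and *Phox2a* rise in *ApoE-/-* mouse 2, where *Slc18a2* reaches 513%.

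The comparison of genotypes gave a direction for these genes that depended on *ApoE-/-* mouse 1. With all 8 mice, edgeR gave log2 fold changes (*ApoE-/-* against WT) of 1.52 for *Th* (SE 1.57), 1.13 for *Ddc* (SE 1.39), 1.37 for *Dbh* (SE 1.53), 1.39 for *Slc18a2* (SE 1.21), 1.38 for *Slc6a2* (SE 1.42), 0.83 for *Npy* (SE 1.37), 1.07 for *Phox2a* (SE 1.34) and 1.14 for *Hand2* (SE 1.29). The log2 fold change exceeded its SE only for *Slc18a2*. Without *ApoE-/-* mouse 1 all 8 were below 0, from -1.38 (SE 0.57) for *Slc18a2* to -2.14 (SE 0.75) for *Phox2a*, with -1.93 (SE 1.05) for *Th*, -2.02 (SE 1.03) for *Dbh* and -1.99 (SE 0.96) for *Npy*. The median over the 8 genes was 1.26 with all mice and -1.91 without this mouse, and over all genes tested it was 0.05 and 0.00.

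limma-voom, which averages log values, gave negative log2 fold changes even with all 8 mice, from -0.37 for *Slc18a2* to -1.41 for *Dbh*. In CPM the mean of *ApoE-/-* mice was 1.78 to 2.87 times that of WT mice, while the median of WT mice was 1.98 to 3.44 times that of *ApoE-/-* mice. At an adjusted p under 0.05, edgeR called 70 genes, or 0.464% of those tested (0.371% higher and 0.0929% lower in *ApoE-/-* mice), and 0 of the 8 noradrenergic genes. At an unadjusted p under 0.05 it counted 11.4% of all genes and also 0 of the 8. limma-voom and DESeq2 called 0 of the 8 as well (DESeq2 called 4.29% of the genes it gave an adjusted p), but DESeq2 gave no adjusted p for 7 of the 8 because *ApoE-/-* mouse 1 exceeded its limit on outlying counts. Without *ApoE-/-* mouse 1 the count was 0 of 8, while 593 genes (3.91%) were called overall.

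**Figure D3:**
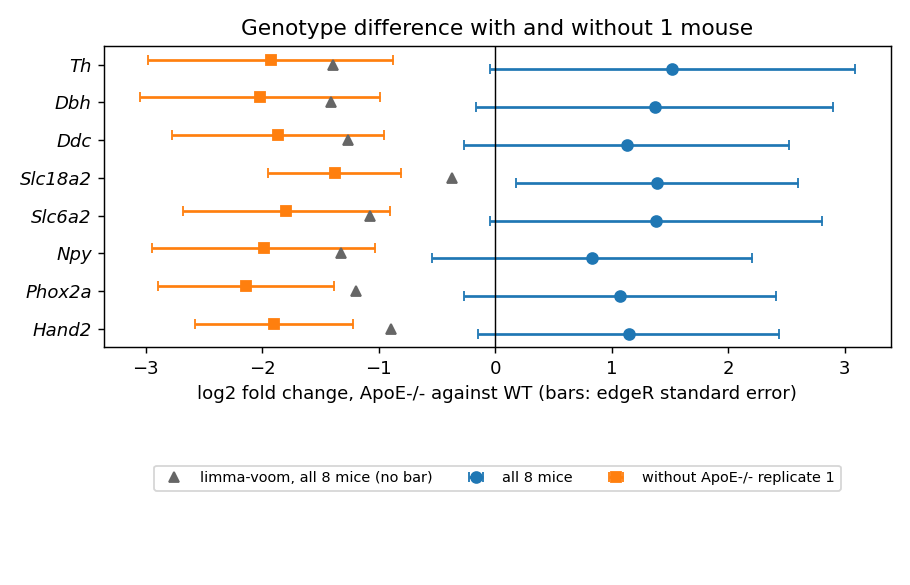
log2 fold change of each gene, *ApoE-/-* against WT, from edgeR with all 8 mice (circles), edgeR without *ApoE-/-* mouse 1 (squares) and limma-voom with all 8 mice (triangles). Bars are the edgeR standard error. Circles lie above 0 (0.83 to 1.52) and squares and triangles lie below it.

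The rest of the noradrenergic pathway was described through 8 lists holding 75 genes, of which 68 were tested. edgeR called 0 of them with all 8 mice (0.464% of all genes), and 4 were at an unadjusted p under 0.05 (11.4% of all genes). The tools limma-voom and DESeq2 also called 0, although DESeq2 gave no adjusted p for 32. Without *ApoE-/-* mouse 1, edgeR called *Gata2*, a factor of the noradrenergic lineage that endothelium also uses, which was lower in *ApoE-/-* mice (log2 fold change -0.79, adjusted p = 0.0133, and -0.11, adjusted p = 0.962, with all mice). It also called *Bdnf*, a neurotrophin named after its value was seen, which was higher (1.55, adjusted p = 0.0363, and 1.23, adjusted p = 0.399, with all mice). In that fit 2.75% of all genes were called higher and 1.16% lower.

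Other transcription factors of the lineage followed the 8 genes in part. *Tfap2b*, which acts in neural crest cells, was at 53.2 CPM in *ApoE-/-* mouse 1, at 0.350 to 3.66 in the other *ApoE-/-* mice and at 2.11 to 8.10 in WT mice. *Isl1* had a narrower range, at 55.4, 3.78 to 9.84 and 5.93 to 12.2 CPM in the same groups. Of the 7 tested genes in this list 6 had a log2 fold change above 0 with all mice, with a median of 1.16, which became -1.46 without *ApoE-/-* mouse 1.

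The nicotinic receptor subunits through which ganglionic neurons are driven were all highest in *ApoE-/-* mouse 1. *Chrna3*, the principal ganglionic subunit, was at 236 CPM in *ApoE-/-* mouse 1, at 0.481 to 25.8 in the other *ApoE-/-* mice and at 14.2 to 49.0 in WT mice. Its partner *Chrnb4* was at 86.4, 0.481 to 6.75 and 3.60 to 14.1 CPM. *Chrnb2* and *Chrna7*, which have wider roles, were spread less. *Chrnb2* was at 48.1, 6.52 to 8.59 and 6.32 to 12.6 CPM and was lowest in WT mouse 3, and *Chrna7* was at 19.8, 1.39 to 4.84 and 3.16 to 6.83 CPM and was lowest in *ApoE-/-* mouse 4. The median log2 fold change of the 5 subunits was 1.16 with all mice and -0.87 without *ApoE-/-* mouse 1.

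Genes that serve the synthesis steps but are used by other cells too were less spread. The 6 genes for the tetrahydrobiopterin cofactor of tyrosine hydroxylase and for vesicle electron transport summed to 950 CPM in *ApoE-/-* mouse 1 and to 145 to 281 in the other 7. *Gch1*, the entry enzyme of cofactor synthesis, was at 128 CPM in *ApoE-/-* mouse 1 and 6.82 to 30.7 in the others, and *Cyb561*, which passes electrons to dopamine beta-hydroxylase, was at 630 and 52.3 to 147. *Pts* and *Qdpr*, which are general cofactor enzymes, were at 43.3 and 72.9 CPM in *ApoE-/-* mouse 1, against 20.5 to 53.1 and 25.4 to 43.3 in the other 7. *Pcbd1*, also in this list, was spread more widely, at 44.9 CPM in *ApoE-/-* mouse 1 and 0.918 to 9.60 in the others. Of the degrading enzymes, *Maoa* was at 865 CPM in *ApoE-/-* mouse 1 and 32.9 to 196 in the others, whereas *Sult1a1*, a sulfotransferase of many tissues, was at 52.4 and within the 48.0 to 133 of the others.

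The receptors for noradrenaline and neuropeptide Y were mixed. The 9 adrenergic receptors summed to 303 CPM in *ApoE-/-* mouse 1, inside the 136 to 339 of the other 7, and their median log2 fold change was -0.44 with all mice and -0.49 without this mouse. *Adra1a*, a contractile receptor of smooth muscle, was at 33.7 to 79.3 CPM in *ApoE-/-* mice and 50.7 to 117 in WT mice. *Adrb1* was at 3.57 to 8.16 CPM in *ApoE-/-* mice and 5.76 to 17.5 in WT mice (log2 fold change -1.14, SE 0.40, adjusted p = 0.293, and -1.501, adjusted p = 0.0660, without *ApoE-/-* mouse 1). *Npy1r*, the vascular neuropeptide Y receptor, was lowest in *ApoE-/-* mouse 1, at 34.1 CPM against 87.5 to 163 in the other 7, the mouse in which *Npy* was highest. The order of the other mice was not the reverse of that of *Npy*. The summed smooth muscle markers were also lowest in *ApoE-/-* mouse 1, at 5748 CPM against 13095 to 25201 in the others. Their part in the *Npy1r* values was not tested. *Adra2a*, which also acts as the autoreceptor on the nerve ending, was at 35.9 CPM in *ApoE-/-* mouse 1 and 6.23 to 9.83 in the others. Like it, *Npy4r* (9.90 CPM against 0.665 to 2.39) and, named after their values were seen, *Adra2b* (31.7 against 2.10 to 9.88) and *Adra2c* (16.6 against 3.48 to 6.69) were highest in *ApoE-/-* mouse 1. The summed level is carried by the more abundant *Adra1a* and *Adrb3*, and *Adrb3* was at 118 CPM in that mouse and 50.8 to 169.6 in the others.

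Neurotrophin receptors split by type. *Ngfr*, a receptor that binds nerve growth factor, was at 728 CPM in *ApoE-/-* mouse 1 against 3.54 to 105 in the other 7. *Ntrk2* and *Ntrk3*, which other aortic cells express, were at 173 and 208 CPM in that mouse and at 79.6 to 178 and 214 to 441 in the others. Neither of the latter was highest in *ApoE-/-* mouse 1.

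Genes of neurons in general, some of them more typical of peripheral neurons or of secretory granules, mostly moved with the noradrenergic ones. The 20 in this list summed to 5775, 82.4, 502 and 144 CPM in *ApoE-/-* mice 1 to 4 and to 623, 1066, 332 and 784 in WT mice 1 to 4, the same order of mice as for the 8 genes. The neuronal tubulin *Tubb3* was at 836 CPM in *ApoE-/-* mouse 1 and 4.72 to 148 in the others, and the synaptic fusion protein gene *Snap25* at 544 and 1.62 to 95.02. *Rbfox3*, a nuclear protein gene of many neurons that is named after its values were seen, was the gene not tested, with 0 to 9 counts. All 19 tested had a log2 fold change above 0 with all mice, with a median of 1.24, and the median was -1.74 without *ApoE-/-* mouse 1.

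Markers of other cells that could accompany nerve tissue were read beside these values. The 12 peripheral glia markers summed to 1865 CPM in *ApoE-/-* mouse 1, 2.36 times the median of the other 7, against 13.8 times for the noradrenergic genes. In the other *ApoE-/-* mice they were at 510 to 790 CPM and in WT mice at 785 to 1245. *Ncam1*, which other cells also express, made up much of the sum, at 468, 408, 401 and 173 CPM in *ApoE-/-* mice 1 to 4 and 190.4 to 323 in WT mice. Single markers differed in how far mouse 1 stood above the rest. *Fabp7* was at 66.3 CPM in *ApoE-/-* mouse 1 and 0.306 to 5.85 in the others, and *Mbp* at 233 and 35.8 to 189. With all mice 0 of the 12 glia markers were called. Without *ApoE-/-* mouse 1, 4 of the 12 were called lower in *ApoE-/-* mice, where 1.16% of all genes were, among them the myelin gene *Mbp* (log2 fold change -1.44, adjusted p = 0.0327) and, singled out after their values were seen, *Sox10* (-1.73, adjusted p = 0.0289) and *Erbb3* (-1.44, adjusted p = 0.0443). With all mice the log2 fold changes of these 3 were -0.48, -0.17 and -0.05. The part of glia in the noradrenergic values was not tested.

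The adrenal medulla also makes catecholamines, so its markers and those of the adrenal cortex around it were examined. *Chga* and *Chgb*, granule proteins that neurons share with chromaffin cells, were at 68.4 and 166 CPM in *ApoE-/-* mouse 1 and at no more than 18.5 and 24.3 in the others. *Slc18a1*, the vesicular transporter more typical of chromaffin cells, was at 69.97 CPM in that mouse and 1.18 to 5.52 in the others. *Penk*, which encodes an opioid peptide precursor, was at 26.7 CPM in that mouse, inside the 24.1 to 43.1 of the others. *Pnmt*, which makes adrenaline and defines chromaffin cells and is singled out after its values were seen, had at most 22 counts in any library. The 8 adrenal cortex markers summed to 12.0 to 16.9 CPM, of which *Star*, a cholesterol transport gene, gave 8.07 to 13.1, and the other 7 summed to 1.35 to 3.91 CPM. In this list the defining *Cyp11b2* and *Nr5a1*, also singled out afterwards, had at most 3 counts in any library.

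Markers of other kinds of neuron were examined too. The 5 cholinergic markers summed to 2.99 to 6.80 CPM over all mice, and the defining *Slc18a3* and, singled out afterwards, *Chat* had at most 3 counts in any library. The 9 sensory markers summed to 579 CPM in *ApoE-/-* mouse 1 and to 8.75 to 107 in the others. The actin regulator *Avil* was at 152 CPM in *ApoE-/-* mouse 1 and 5.03 to 35.4 in the others. The sensory peptide gene *Calca* and the heat-gated channel gene *Trpv1* were at 0.446 and 2.84 CPM in *ApoE-/-* mouse 1, inside the 0.394 to 2.11 and 2.10 to 2.99 of the others. The brown adipocyte markers were at 2743 CPM in *ApoE-/-* mouse 1, inside the 858 to 5247 of the others, and the endothelial markers were lowest in *ApoE-/-* mouse 1, at 1943 CPM against 2202 to 3297 in the others. Macrophage markers were higher in *ApoE-/-* mice (588 to 2672 CPM against 460 to 548), and *Fcgr1* and *Trem2* were the 2 of the 94 tested markers of all cell types that edgeR called (log2 fold changes 2.32 and 4.10, adjusted p = 0.0355 and 0.0434, and 2.45 and 4.43 without *ApoE-/-* mouse 1), where 0.464% of all genes were. On leaving out any mouse other than *ApoE-/-* mouse 1, 0 of the markers were called. Among *ApoE-/-* mice, the macrophage sum was lowest in mouse 1.

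**Figure D4:**
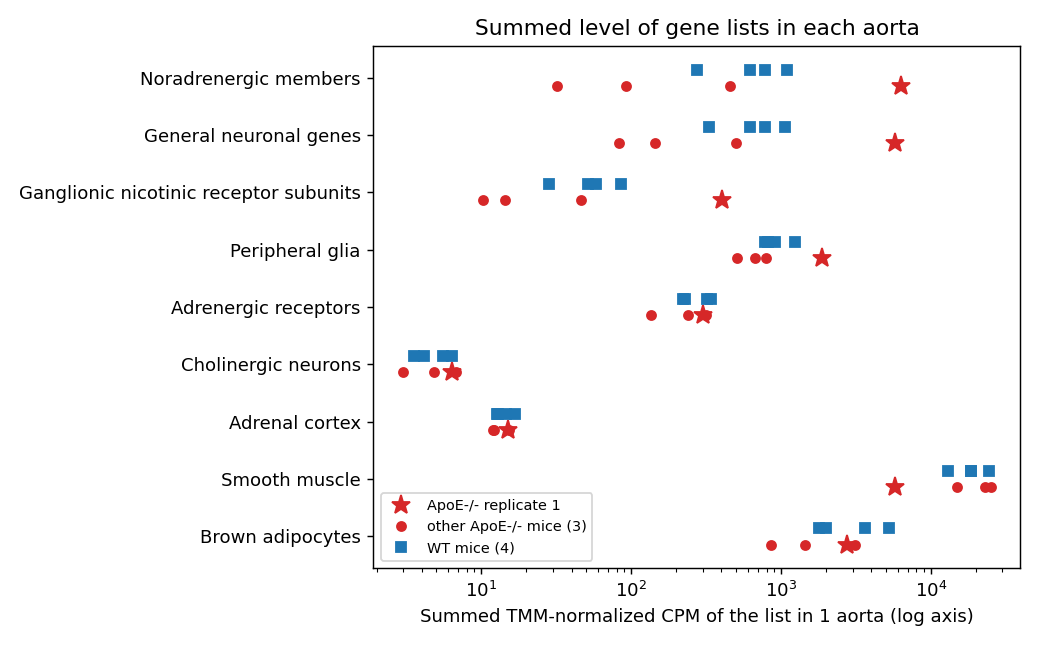
Summed TMM-scaled CPM (log axis) of 9 gene lists in each aorta. Stars are *ApoE-/-* mouse 1, circles the other 3 *ApoE-/-* mice and squares the 4 WT mice. The star is far to the right for the noradrenergic, general neuronal and nicotinic lists, inside the other mice for adrenergic receptors, cholinergic neurons, adrenal cortex and brown adipocytes, and lowest for smooth muscle.

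To find the genes most like the 8, the log2 CPM of each gene was centred on its mean and compared with the median profile of the 8 over the 8 aortas. The root mean square difference was 0.158 to 0.734 for the 8 genes themselves and had a median of 2.22 over the 15069 other genes tested, of which 337 (2.24%) were under 1. The 10 nearest were *Ppp2r2c* (0.136), *Prph* (0.145), *Rab3b* (0.146), *Sult4a1* (0.147), *Pirt* (0.147), *Nrsn1* (0.159), *Celf6* (0.161), *Resp18* (0.165), *Gria2* (0.165) and *Ctnna2* (0.176). *Prph*, which encodes the intermediate filament peripherin of peripheral neurons, was at 485 CPM in *ApoE-/-* mouse 1, at 1.71, 37.5 and 8.25 in *ApoE-/-* mice 2 to 4 and at 28.0 to 99.6 in WT mice. *Rab3b*, a small GTPase of synaptic vesicles, was at 235 CPM in *ApoE-/-* mouse 1, at 0.875 to 15.4 in the other *ApoE-/-* mice and at 11.4 to 40.3 in WT mice. *Gria2*, a subunit of the AMPA glutamate receptor, was at 86.9 CPM in *ApoE-/-* mouse 1 and at 0.262 to 15.5 in the other 7. All share the same 8 libraries, so the likeness describes these aortas and gives no test.

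**Figure D5:**
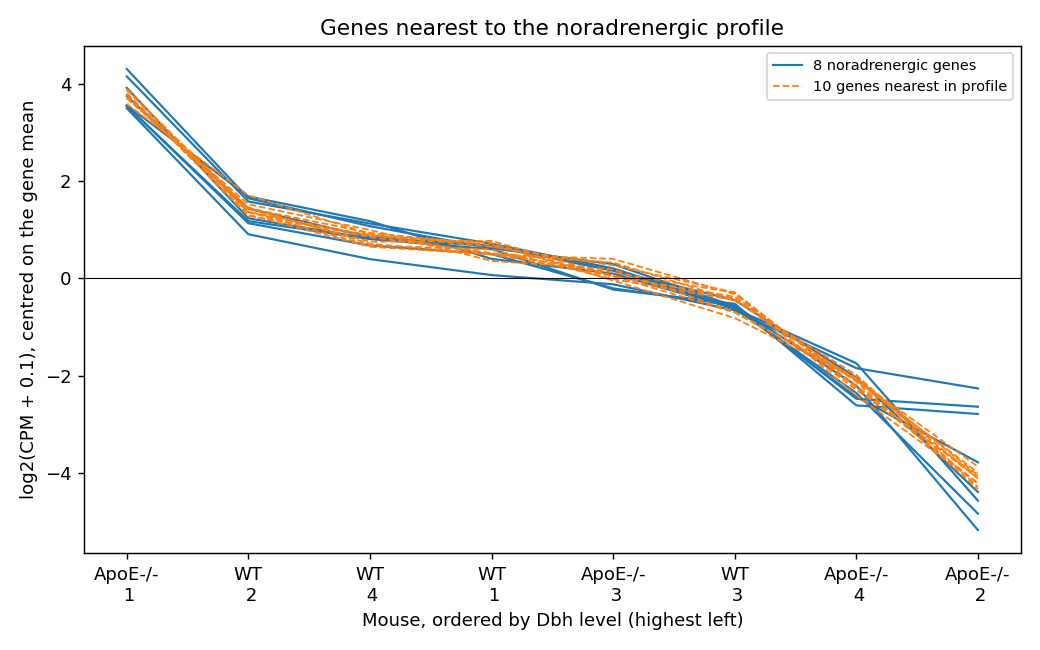
log2(CPM + 0.1) centred on the mean of each gene, over the 8 aortas ordered by *Dbh*, for the 8 noradrenergic genes (solid) and the 10 genes nearest to their median profile (dashed). The dashed lines run inside the bundle of solid lines, which spreads in *ApoE-/-* mouse 2.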

How the data were processed

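The authors isolated RNA from whole aortas, made stranded total RNA libraries after ribosomal depletion and sequenced paired ends. The deposited files hold raw counts of read pairs per gene, 1 file per mouse, with no normalization and no pooling. The submitters' processing notes name TopHat2, HTSeq and GRCm38 (mm10). The annotation release is not given in the sources used here. Of 21859 gene identifiers, 21817 were found in GENCODE M21, which gave positions and exon lengths. The 5 rows without a gene were left out of library sizes. The row of pairs on no gene held 50.1% to 54.7% of all pairs in *ApoE-/-* mice and 56.4% to 58.0% in WT mice. Each library is a separate mouse.

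Counts were filtered with filterByExpr and compared between genotypes with edgeR 4.0.16 in R 4.3.3 (TMM factors of 0.963 to 1.06, glmQLFit with robust estimation, glmQLFTest, two-sided, Benjamini-Hochberg adjustment over 15077 genes). SEs of log2 fold changes were derived from F. DESeq2 1.42.0 (the tool the authors used), limma-voom (limma 3.58.1), other scalings and filters, a block for replicate number, and the omission of each mouse in turn were alternatives. The fit was tested on simulated data. Lists and the 8 genes were chosen with earlier results of these data known. From each list, genes past the threshold were named, otherwise the 4 with the highest mean CPM and the 2 with the largest log2 fold change; any others are marked where named, and some genes the rule selects are not reported here. Promoters came from RefSeq, and likeness used log2 CPM with a prior count of 2.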

Additional observations from a re-analysis of the deposited data

Results flagged for a closer look

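For each gene, proportion and list sum, the 4 mice of a genotype were examined for a value far from the rest, by the gap to its nearest neighbour as a share of the whole range (Dixon's ratio, against its 95% critical value for 4 samples). Chance alone puts about 5% of groups over that value. The 8 genes were chosen with this spread known and the groups share the same mice, so the ratios describe these libraries and the number of groups over the value is no evidence. The outlying value was *ApoE-/-* mouse 1 for all 8 noradrenergic genes, with ratios of 0.940 for *Th*, 0.938 for *Dbh*, 0.921 for *Ddc*, 0.936 for *Slc18a2*, 0.931 for *Slc6a2*, 0.913 for *Npy*, 0.939 for *Phox2a* and 0.939 for *Hand2*, and 0.932 for their summed CPM.

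Among the summed lists, *ApoE-/-* mouse 1 was far above the other *ApoE-/-* mice for the other transcription factors (0.916), nicotinic receptor subunits (0.908), cofactor and vesicle electron transport genes (0.935), breakdown and uptake genes (0.954), neurotrophic ligands and receptors (0.854), general neuronal genes (0.926), chromaffin cell markers (0.9499) and sensory neuron markers (0.937). *ApoE-/-* mouse 4 was far below the others for cardiac muscle markers (0.862), at 143 CPM against 311 to 338. That sum was mostly *Ryr2*, which smooth muscle also expresses, at 213, 311, 293 and 123 CPM in *ApoE-/-* mice 1 to 4, and *Myh6* was at 2.52 CPM in mouse 4, above mice 2 and 3.

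As a percent of *Dbh*, *ApoE-/-* mouse 2 was outlying for *Th* (0.864), *Slc18a2* (0.857), *Slc6a2* (0.907), *Phox2a* (0.961) and *Hand2* (0.944), low for *Th* and high for the rest. WT mouse 3 was outlying for *Slc18a2* (0.897), at 80.2% against 50.1% to 53.2% in the other WT mice.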

How the results depend on the processing

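No alternative called any of the 8 noradrenergic genes, but DESeq2 gave an adjusted p for 1 of them only, and *Phox2a* was not tested where 10 counts were required in every library. The number of all genes called was 70, and it was 721 with DESeq2, 29 with limma-voom and 0 to 593 on leaving out 1 mouse (593 without *ApoE-/-* mouse 1, and 17 or fewer without any other). For the pathway genes the count of 0 became 2 without *ApoE-/-* mouse 1, so that leaving out 1 mouse gave 0 to 2. For the cell type markers the count of 2 became 20 with DESeq2, 1 with limma-voom and 0 to 23 on leaving out 1 mouse (23 without *ApoE-/-* mouse 1, and 0 without any other). Other scalings and filters kept these counts within 1.5 times. Of 71 log2 fold changes of the 8 genes that used all mice, 16 were below 0, namely those of limma-voom and of the replicate block. Of 64 on leaving out 1 mouse, 8 were below 0, all without *ApoE-/-* mouse 1.

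Both genotypes use replicate numbers 1 to 4 for different animals, and same-numbered mice did not deviate together (correlations of -0.448 to 0.316, with 1 of 8 samples closest to its own number). With the replicate number as a block, 2 genes were called in all and 0 of the cell type markers. The cause of these changes was not tested. Depth limits *Phox2a* in particular, which had 5 and 6 counts in 2 *ApoE-/-* mice.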

Other observations

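Cardiac muscle markers, which the aortic root and pulmonary vein sleeves can carry, differed in another order of mice than the neuronal genes. They summed to 143 to 338 CPM in *ApoE-/-* mice, most of it *Ryr2* (123 to 311), and to 362 to 609 in WT mice, and 7 of 9 had ranges that did not overlap, against 8.71% of all genes tested. *Myh6*, the atrial and adult ventricular myosin of the mouse, was at 51.3, 1.62, 1.18 and 2.52 CPM in *ApoE-/-* mice 1 to 4 and at 88.6 to 158 in WT mice. edgeR called 0 of the 9 with all mice (0.464% of all genes), and 7 of the 9 were at an unadjusted p under 0.05 (11.4% of all genes). With all mice DESeq2 called *Myl4* (adjusted p = 1.00e-05), *Nppa* (8.25e-05) and *Tnnt2* (2.24e-04) lower in *ApoE-/-* mice. It also called *Tnni3* lower (2.29e-04), named after its value was seen, and none of the others. DESeq2 called 4.29% of all genes it gave an adjusted p. Without mouse 1 edgeR called 6 of the 9, all lower in *ApoE-/-* mice, where 1.16% of all genes were. *ApoE-/-* mouse 1 was the highest of its genotype for *Myh6*, as it was for the noradrenergic genes.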
